A study of Mus musculus with 2 samples.

Results

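A set of 38 genes of S phase and mitosis was followed across the leukocytes of the mouse adrenal gland. They were taken by name, whatever their level, and are 38 of the 32285 genes counted in both libraries. They were read as 3 lists. The S phase list holds 12 genes that work on DNA synthesis (Mcm2 to Mcm7, Pcna, Tyms, Rrm1, Rrm2, Gins2 and Dut). The G2/M list holds 21 genes of G2 and mitosis (Mki67, Top2a, Ccna2, Ccnb1, Ccnb2, Cdk1, Birc5, Cenpa, Cenpe, Cenpf, Tpx2, Nusap1, Ube2c, Hmmr, Aurka, Aurkb, Bub1, Plk1, Kif11, Kif23 and Cdc20). The third list holds 5 genes that non-dividing cells also use (Stmn1, Tubb5, Hmgb2, H2afz and Tuba1b), called broad here. The cells were live CD45+ cells, sorted after digestion of adrenal glands from C57Bl/6 mice aged 7 weeks, with no genetic change or treatment named in the labels. There was 1 droplet library from female mice and 1 from male mice, and the number of mice behind each was not given. No difference between the sexes could therefore be set against the spread between animals, sex and library cannot be told apart, and no p-value is given.

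A cell that divides first copies its DNA in S phase and then separates the copies in mitosis, after a gap called G2. The helicase subunits Mcm2 to Mcm7 open the DNA, the clamp Pcna holds the polymerase on it, and Tyms, Rrm1, Rrm2 and Dut supply nucleotides. Top2a untangles the chromosomes, the kinase Cdk1 with its cyclins Ccna2, Ccnb1 and Ccnb2 drives entry into mitosis, and Ube2c and Cdc20 belong to the machinery that ends it. Most mature leukocytes in a healthy tissue are resting, while macrophages of some tissues can renew by dividing in place.

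Of the 3963 female and 2685 male barcodes, 3817 and 2502 had at least 200 genes and at most 15% mitochondrial UMIs (unique molecular identifiers, 1 per captured RNA molecule) and were kept, with 16049803 and 9321581 UMIs and medians of 3539 and 3021.5 UMIs per cell. Each cell was given a lineage from 18 marker lists that hold none of the 38 genes. The names are written as "-like", since they rest on markers alone. Macrophage-like cells numbered 846 in the female and 881 in the male library, NK-like cells 862 and 354, T-like cells 732 and 402, B-like cells 522 and 267, monocyte-like cells 278 and 161, and dendritic-like cells 128 and 108. Cells with markers of more than 1 lineage (165 and 102) were kept as a class of their own, and 68 and 45 cells had no lineage. The sort was for leukocytes, yet 41 and 47 cells carried endothelial and 21 and 30 cells adrenal cortex markers. Levels are given as CPM, which is the UMIs of a gene summed over cells and divided by all UMIs of the same cells, times 1000000. A summed level cannot tell fewer positive cells from less RNA in each. The 95% intervals cover counting error only, and UMIs that come from a few cells are not independent draws.

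All 38 genes had UMIs in both libraries. The S phase genes ranged from 230 UMIs over both libraries (Gins2, a subunit of the replication helicase) to 3192 (Pcna). Pcna was at 116 CPM in the female (111 to 121) and 143 CPM in the male library (135 to 151). Dut, which keeps uracil out of DNA, was at 61.9 and 59.2 CPM. The helicase subunits Mcm6 (47.8 and 49.2 CPM), Mcm3 (41.3 and 43.8), Mcm4 (29.9 and 33.1) and Mcm5 (28.2 and 33.3) followed. Pcna UMIs were found in 29.2% of female and 29.9% of male cells, against 1.94% and 1.36% for Rrm2. Summed, the list stood at 441 CPM in the female and 483 CPM in the male library.

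The G2/M genes were scarcer, from 46 UMIs (Bub1, a kinase of the mitotic checkpoint) to 891 (Top2a). Top2a was at 40.8 CPM in the female (37.7 to 44.1) and 25.3 CPM in the male library (22.2 to 28.8). Cenpa, the histone variant of the centromere, was at 29.4 and 20.5 CPM, and Birc5, a subunit of the chromosomal passenger complex, at 18.3 and 12.4 CPM. Mki67, which coats mitotic chromosomes and encodes the Ki-67 antigen, was at 16.3 CPM in the female (14.4 to 18.4) and 10.8 CPM in the male library (8.83 to 13.2). Ube2c was at 17.7 and 7.62 CPM and Cdk1 at 11.9 and 8.58 CPM. Ccna2, the cyclin of late S phase and G2, was at 6.79 CPM in the female (5.58 to 8.19) and 5.26 CPM in the male library (3.89 to 6.95). Mki67 UMIs were found in 1.94% and 2.04%, Ccna2 UMIs in 1.23% and 0.879% of the cells. Summed, the G2/M list stood at 227 and 145 CPM.

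The broad genes were the most abundant, at 2046 and 2011 CPM together. H2afz, a histone variant, was at 783 and 796 CPM and had UMIs in 75.2% and 68.0% of the cells. Hmgb2, a chromatin protein, was at 505 and 389 CPM, the tubulins Tubb5 and Tuba1b at 391 and 276 CPM in the female and 399 and 352 CPM in the male library, and Stmn1, which binds free tubulin, at 91.5 and 74.3 CPM. A UMI of a broad gene was therefore common in cells with no other member.

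**Figure D1:**
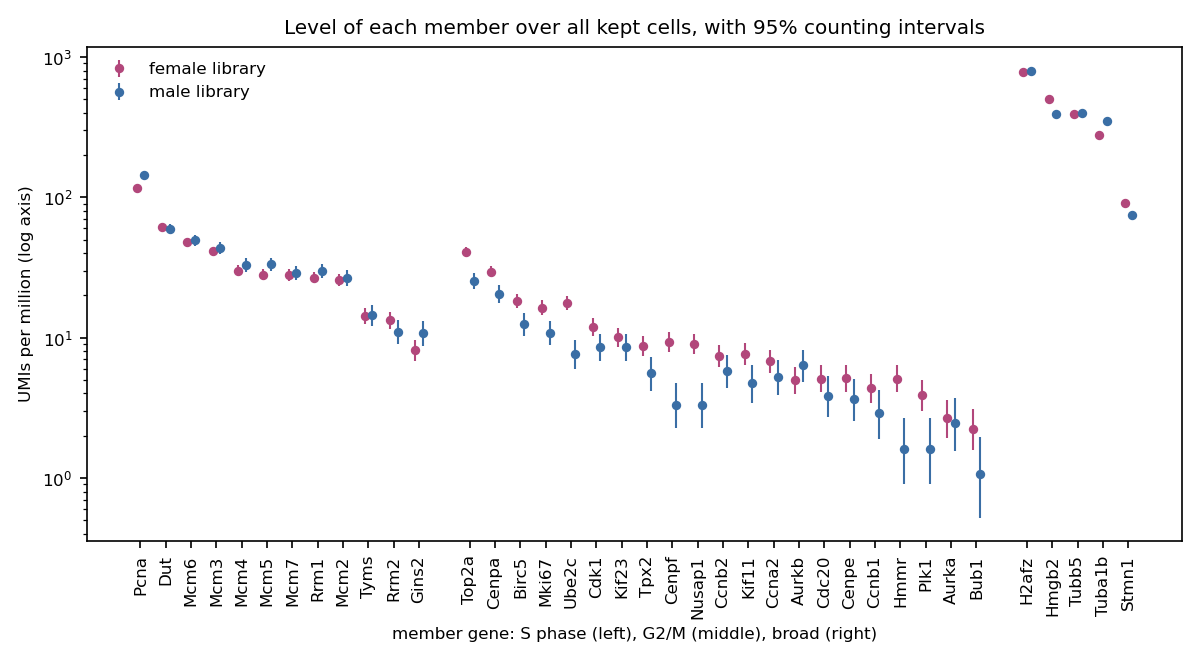
Level of each of the 38 genes over all kept cells (CPM, log axis) in the female and the male library, with 95% counting intervals, for the S phase, G2/M and broad lists from left to right. Within the G2/M list the female points lie above the male ones for every gene except Aurkb, while the S phase points lie close together.

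Promoters were set beside the levels because both lists are known as transcription programs with short DNA elements of their own. E2F factors act on S phase genes through E2F elements. Mitotic genes often carry a CHR element (cell cycle homology region) with CCAAT boxes a short way upstream. RefSeq promoter windows (build GRCm38.p6, 250 bases before and 50 after a gene's start) were searched on both strands for TTTGAA as CHR, for CCAAT, and for TTTGGCGC, TTTCCCGC, TTTCGCGC or TTTGCCGC as E2F. No motif contains another, but E2F words on opposite strands can overlap, as they do in Mcm5 and Mcm6. Of the 21 G2/M genes, 18 had a window: 13 held CHR letters, 16 held CCAAT, 13 held both, and 1 (Cdk1) held an E2F word. Over all 27025 genes with a window, 20.2% held CHR letters, 41.1% held CCAAT and 8.97% held both. Of the 12 S phase genes, 10 had a window: 4 held an E2F word, against 2.61% of all genes, 8 held CCAAT, and 1 held CHR letters. Of the broad genes 4 had a window, 3 with CCAAT, 1 (Hmgb2) with CHR letters and none with an E2F word. A match is a run of letters, not a site shown to be used. The 250 bases before the start are printed for the 2 S phase and the 3 G2/M genes with the most UMIs that held a motif of their list there and had at most 30 bases inside annotated exons. They run 5′ to 3′ on the gene's strand, and capitals mark the E2F words in the first 2 and the CHR letters (TTTGAA or TTCAAA) and CCAAT boxes (CCAAT or ATTGG) in the other 3.
Mcm6, chr1:128359706-128359955, minus strand: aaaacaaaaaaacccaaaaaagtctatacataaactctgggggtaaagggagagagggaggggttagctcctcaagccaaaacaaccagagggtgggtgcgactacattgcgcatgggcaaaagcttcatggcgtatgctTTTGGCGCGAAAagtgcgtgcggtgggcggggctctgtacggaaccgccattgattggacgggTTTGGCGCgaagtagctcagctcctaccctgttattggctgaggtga
Mcm5, chr8:75109259-75109508, plus strand: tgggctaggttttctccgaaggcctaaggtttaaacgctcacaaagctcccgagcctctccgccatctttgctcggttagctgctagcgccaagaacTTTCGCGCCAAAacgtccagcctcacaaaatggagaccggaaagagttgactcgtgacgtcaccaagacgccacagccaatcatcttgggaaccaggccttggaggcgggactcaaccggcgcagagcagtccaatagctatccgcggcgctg
Top2a, chr11:99024190-99024439, minus strand: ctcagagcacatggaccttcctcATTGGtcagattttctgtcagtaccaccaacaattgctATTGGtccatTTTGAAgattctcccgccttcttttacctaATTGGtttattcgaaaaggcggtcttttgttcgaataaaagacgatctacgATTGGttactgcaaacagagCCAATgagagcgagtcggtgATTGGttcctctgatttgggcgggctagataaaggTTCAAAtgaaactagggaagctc
Mki67, chr7:135716380-135716629, minus strand: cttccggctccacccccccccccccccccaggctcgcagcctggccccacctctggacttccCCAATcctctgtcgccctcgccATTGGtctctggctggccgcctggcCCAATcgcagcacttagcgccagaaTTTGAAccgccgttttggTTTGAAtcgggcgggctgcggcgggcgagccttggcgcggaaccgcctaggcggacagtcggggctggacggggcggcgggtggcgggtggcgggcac
Cdk1, chr10:69352913-69353162, minus strand: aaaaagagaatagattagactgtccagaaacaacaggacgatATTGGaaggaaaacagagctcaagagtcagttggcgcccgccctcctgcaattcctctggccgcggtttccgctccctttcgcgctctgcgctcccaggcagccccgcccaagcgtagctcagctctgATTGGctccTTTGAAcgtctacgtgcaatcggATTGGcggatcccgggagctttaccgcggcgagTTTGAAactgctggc
Mcm6 held 3 E2F matches, the nearest 39 bases before the start, and Mcm5 held 2, the nearest 141 bases before it. Top2a held 2 CHR matches, the nearest 17 bases before the start, and 6 CCAAT boxes. Cdk1 held 2 CHR matches, the nearest 9 bases before the start, and 3 CCAAT boxes, the nearest at 43 bases. Mki67 held 2 CHR matches and 3 CCAAT boxes, the nearest of each at 92 and 136 bases.

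Across the 6 lineages with the most cells the G2/M list was highest in T-like cells of the female library. Summed over the list it reached 503 CPM there (479 to 528) and 278 CPM in male T-like cells (253 to 305). NK-like cells followed in the female library with 189 CPM (176 to 202) and had 88.0 CPM in the male library (75.0 to 102). Macrophage-like cells, the class with the most cells in the male library, had 114 CPM (103 to 126) in the female and 127 CPM (115 to 140) in the male library. The sum was 76.7 and 70.0 CPM for B-like cells and, the least of the 6, 23.5 and 49.0 CPM for monocyte-like cells. Dendritic-like cells had 136 CPM (108 to 168) in the female and 337 CPM (288 to 391) in the male library, where they ranked first with an interval that overlapped that of T-like cells. T-like cells held the highest level of 20 of the 21 G2/M genes in the female library. In the male library dendritic-like cells held 13 of them, T-like cells 6 and B-like cells 2. In each library, 5 cells held 49.1% of the G2/M UMIs of the female and 76.7% of those of the male T-like cells, 74.7% and 70.9% of those of the dendritic-like cells, and 48.3% and 49.9% of those of the macrophage-like cells, so the order of lineages rests on few cells. Smaller classes were less certain still: female endothelial-like cells stood at 743 CPM (588 to 926) with 97.5% of 79 UMIs in 5 cells, and the 8 female plasma cell-like cells at 549 CPM with all 83 UMIs in 3 cells.

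Single G2/M genes gave different orders in the 2 libraries. Top2a was at 85.4 CPM in female and 68.3 CPM in male T-like cells, at 43.8 and 10.7 CPM in NK-like cells, at 18.4 and 22.8 CPM in macrophage-like cells, at 21.2 and 25.5 CPM in dendritic-like cells, and at 8.13 and 4.47 CPM in B-like cells. Mki67 was at 33.1 and 24.8 CPM in T-like cells, 15.4 and 9.06 CPM in NK-like cells, 11.7 and 8.48 CPM in macrophage-like cells, and 3.27 and 15.7 CPM in dendritic-like cells. Monocyte-like cells had 0 Mki67 UMIs in the female and 1 in the male library, and 0 Ccna2 UMIs in both, which allows up to 3.21 and 5.44 CPM by a floor of 3 counts, while the exact 95% intervals reach 3.94 and 6.69 CPM. Ccna2 was at 16.1 and 9.06 CPM in T-like cells, 6.53 and 17.6 CPM in dendritic-like cells, and 3.51 and 7.17 CPM in macrophage-like cells. Birc5 (41.1 against 22.4 CPM) and Ube2c (39.2 against 12.1 CPM) were likewise higher in dendritic-like than in T-like cells of the male library. Macrophage-like cells were thus above monocyte-like cells for Top2a, Mki67 and Ccna2 in both libraries, and below T-like cells, but several of these intervals overlapped. In the male library those of macrophage-like and monocyte-like cells did so for Top2a (17.8 to 28.8 against 3.99 to 23.7 CPM), Mki67 (5.54 to 12.4 against 0.0459 to 10.1 CPM) and Ccna2 (4.50 to 10.9 against 0 to 6.69 CPM), and in the female library for Ccna2 (1.81 to 6.12 against 0 to 3.94 CPM). The male Ccna2 interval also overlapped that of T-like cells (5.07 to 14.9 CPM).

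Cenpa was spread more widely than the rest of the list. It was at 52.2 and 24.8 CPM in T-like cells, 25.3 and 20.3 CPM in NK-like cells, and 34.8 and 41.7 CPM in B-like cells, where Top2a was at 8.13 and 4.47 CPM. Kif23, a motor of the central spindle, was the only G2/M gene with more than 2 UMIs in neutrophil-like cells of either library. Of their 17 female and 13 male G2/M UMIs, 12 and 10 were Kif23 (103 CPM, 53.4 to 180, and 98.6 CPM, 47.3 to 181). The 53 and 55 neutrophil-like cells had no UMI of Mki67, Top2a, Ccna2, Birc5 or Ube2c.

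The S phase list separated the lineages less. Its sum was 574 CPM in female and 690 CPM in male T-like cells, 544 and 551 CPM in NK-like cells, 407 and 459 CPM in macrophage-like cells, 323 and 527 CPM in dendritic-like cells, 235 and 226 CPM in B-like cells, with monocyte-like cells last at 192 and 210 CPM. Pcna was highest in macrophage-like cells of both libraries (143 and 171 CPM). It reached 115 and 131 CPM also in monocyte-like cells, where Tyms and Rrm2 had no UMI. Dut was highest in T-like cells (106 and 121 CPM) and at 27.8 and 25.1 CPM in macrophage-like cells. Mcm6 was highest in NK-like cells (73.7 and 87.4 CPM), the other Mcm genes were led by T-like, NK-like or dendritic-like cells, and Gins2 by macrophage-like cells (14.6 and 16.0 CPM). Pcna and the nucleotide enzymes thus ranked the lineages in different orders.

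To count cells rather than UMIs, 1000 UMIs were drawn at random from each cell, and a cell with UMIs of at least 3 different genes of a list was called high for it. The 193 female and 242 male cells with fewer UMIs were left out, leaving 3624 and 2260. S phase-high cells numbered 42 of 3624 in the female (1.16%, 0.837 to 1.56%) and 35 of 2260 in the male library (1.55%, 1.08 to 2.15%). G2/M-high cells numbered 31 (0.855%, 0.582 to 1.21%) and 12 (0.531%, 0.275 to 0.926%). The difference between the libraries was -0.390 percentage points (-1.06 to 0.202) for S phase and 0.324 points (-0.144 to 0.747) for G2/M, both within counting error. Neither held under every setting, as another random draw gave 0.551 points (0.0898 to 0.980) for G2/M, and a minimum of 2 genes gave -1.17 points (-2.40 to -0.00346) for S phase. Of the 77 S phase-high cells 11 were also G2/M-high. The boundary is a step on a range and not a gap: 227 cells had 2 and 43 had exactly 3 S phase genes, and 30 cells had 2 and 12 had exactly 3 G2/M genes. Without the draw, 784 cells had 3 or more S phase genes and 113 had 3 or more G2/M genes. Of the 66 cells high for S phase alone, 26 had 3 or more G2/M genes before the draw. High cells held more UMIs than the rest: the median was 9231 in G2/M-high cells, 6980.5 in cells high for S phase alone and 3573 in the cells high for neither. The part of cell size or doublets in this was not tested. Doublet scoring marked none of the 43 G2/M-high and 3 of the 77 S phase-high cells. Among all kept cells it marked 123 of 3817 in the female and 53 of 2502 in the male library. The number marked per library was set by an assumed rate of 0.8% per 1000 barcodes and is not a measured doublet rate.

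**Figure D2:**
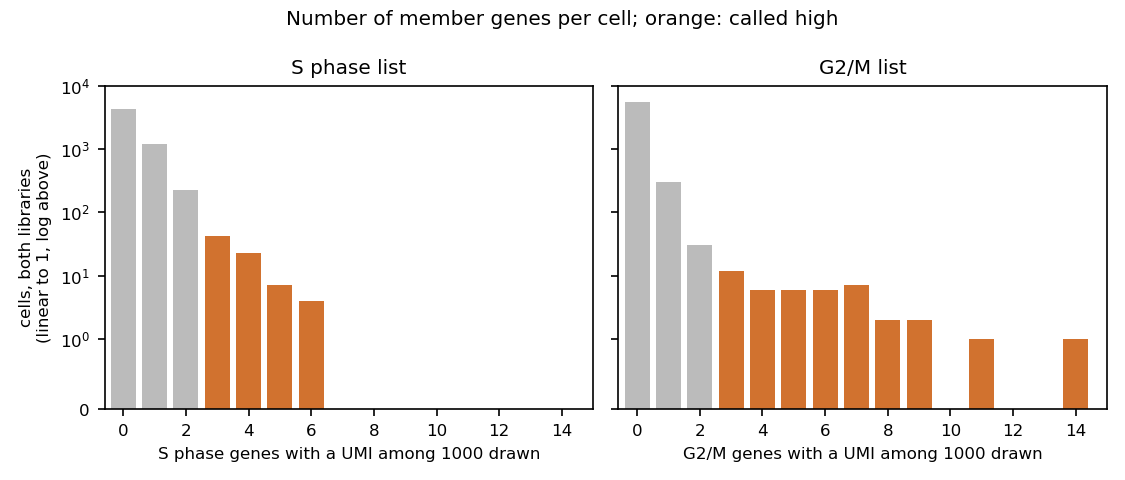
Number of cells of both libraries (linear to 1, log above) by the number of S phase genes (left) and G2/M genes (right) with a UMI among 1000 drawn, with cells called high in orange. S phase counts fall off steeply, from 227 cells at 2 genes to 4 cells at 6, while the G2/M counts have a long low tail that ends with 1 cell at 14 genes.

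T-like cells made up the largest group of the G2/M-high cells. They were 20 of the 43 (46.5%, 31.2 to 62.3%), beside 19.0% of all drawn cells. This order came from the female library, with 17 T-like of 31 high cells. In the male library T-like cells were 3 of 12, beside 4 macrophage-like and 4 dendritic-like cells. Over both libraries macrophage-like cells were 6 (14.0%, beside 25.7% of drawn cells), dendritic-like cells 5 (11.6%, beside 3.79%), NK-like cells 3 (6.98%, beside 20.4%), endothelial-like cells 3 and B-like cells 2, and 4 more were of mixed or no lineage. Within T-like cells 17 of 725 were G2/M-high in the female (2.34%, 1.37 to 3.73%) and 3 of 393 in the male library (0.763%, 0.158 to 2.21%), a difference of 1.58 percentage points (-0.118 to 3.05). No monocyte-like cell was G2/M-high (0 of 255 and 0 of 157, which allows shares of up to 1.18% and 1.91% by the floor of 3 counts, with exact intervals to 1.44% and 2.32%) and no neutrophil-like cell (0 of 46 and 0 of 44). The median depth was 3018 and 3088 UMIs in monocyte-like, 1778 and 1651 in neutrophil-like, and 3927.5 and 3786.5 in T-like cells.

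In macrophage-like cells 2 of 776 were G2/M-high in the female (0.258%, 0.0312 to 0.928%) and 4 of 738 in the male library (0.542%, 0.148 to 1.38%). The difference was -0.284 percentage points (-1.15 to 0.469). With another random draw the counts were 5 and 1, so the direction between the sexes was not fixed by these data. NK-like cells had 2 of 850 (0.235%) and 1 of 351 (0.285%), dendritic-like cells 1 of 123 (0.813%) and 4 of 100 (4.00%, 1.10 to 9.93%), and B-like cells 2 of 503 and 0 of 253. The 3 endothelial-like G2/M-high cells were 3 of 32 in the female library, with 0 of 36 in the male library. They had UMIs of Plpp3, Kdr, Pecam1 and Cdh5 and a median mitochondrial share of 8.99%, against 2.83% in the other endothelial-like cells.

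The S phase-high cells were shared out more evenly. T-like cells were 26 of the 77 (33.8%, 23.4 to 45.4%), macrophage-like and NK-like cells 19 each (24.7%, 15.6 to 35.8%), dendritic-like cells 5 and monocyte-like cells 3. The order depended on the setting: with a minimum of 2 genes macrophage-like cells came first (31.6%, with NK-like cells at 25.7% and T-like cells at 21.7%), and without a draw NK-like cells did (29.6%, with T-like cells at 23.2%). B-like cells, 12.8% of the drawn cells, were 1 of the 77 (1.30%). T-like cells had 16 of 725 in the female (2.21%) and 10 of 393 in the male library (2.54%), NK-like cells 14 of 850 (1.65%) and 5 of 351 (1.42%), and macrophage-like cells 6 of 776 (0.773%, 0.284 to 1.68%) and 13 of 738 (1.76%, 0.941 to 2.99%). The macrophage difference of -0.988 percentage points (-2.29 to 0.173) was within counting error. For cells high for either list it was -1.27 points (-2.67 to -0.00639), on 7 of 776 and 16 of 738 cells. These intervals are over the cells of 1 library per sex in 1 draw, and without a draw the S phase difference was 1.30 points, with an interval that spanned 0. NK-like cells thus took a larger share of the S phase-high than of the G2/M-high cells (24.7% against 6.98%), with only 3 cells behind the lower share and no test of the difference.

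**Figure D3:**
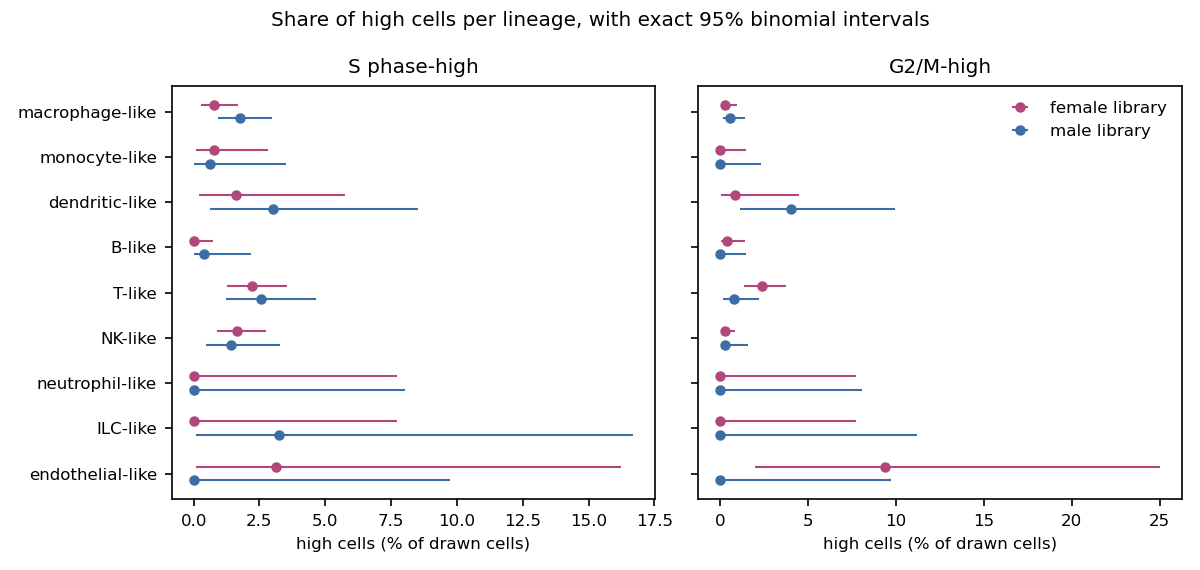
Share of drawn cells (%) that were S phase-high (left) or G2/M-high (right) in 9 lineages of the female and the male library, with exact 95% binomial intervals. Female T-like cells are at 2.34% G2/M-high and male dendritic-like cells at 4.00%, and monocyte-like and neutrophil-like cells are at 0 for G2/M. The intervals of the 2 libraries overlap in every lineage.

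Macrophage-like cells were read further by subset. Lyve1-high cells (52 and 108) and Aldh1a2-high cells (91 and 108) were taken from their own markers. The remaining cells with at least 1000 UMIs were split by their MHC class II level at 10 UMIs per 1000. Another 60 female and 127 male cells had fewer UMIs and were in neither MHC class II group. The Lyve1-high and Aldh1a2-high groups kept their cells with fewer UMIs. No Lyve1-high cell was G2/M-high (0 of 48 and 0 of 96), and no MHC class II-low cell (0 of 174 and 0 of 26). Aldh1a2-high cells had 0 of 85 and 2 of 104, and MHC class II-high cells 2 of 469 and 2 of 512. By the floor of 3 counts these counts of 0 allow 6.25% and 3.13% for Lyve1-high cells and 1.72% and 11.5% for MHC class II-low cells, and the exact intervals reach 7.40%, 3.77%, 2.10% and 13.2%. Before the draw 3 of 174 female MHC class II-low cells (1.72%) and 6 of 469 female MHC class II-high cells (1.28%) had 3 or more G2/M genes, as did 5 of 91 female (5.49%) and 4 of 108 male Aldh1a2-high cells (3.70%), so the order of the subsets by cells depended on the draw. The summed G2/M level was 53.5 CPM (38.4 to 72.6) in female MHC class II-low cells and 126 CPM (112 to 142) in female MHC class II-high cells. In Aldh1a2-high cells it was 159 CPM (121 to 204) in the female and 242 CPM (200.5 to 289) in the male library, with 72.9% and 75.0% of those UMIs in 5 cells each. Lyve1-high cells, with no G2/M-high cell, were at 151 CPM (94.7 to 229) and 110 CPM (73.3 to 159) on 22 and 28 UMIs. In female MHC class II-high cells 5 cells held 66.8% of the G2/M UMIs. Mki67 had 1 UMI in female MHC class II-low cells (1.31 CPM), 35 in female MHC class II-high cells (16.7 CPM), 4 in female Aldh1a2-high cells (10.7 CPM) and 0 in female Lyve1-high cells, which allows up to 20.6 CPM by the floor of 3 counts. In the male library the MHC class II-low level of 62.4 CPM (22.9 to 136) overlapped the MHC class II-high level of 104 CPM (90.4 to 118). The S phase list was at 401 (357 to 448) and 439 CPM (411 to 468) in the female MHC class II-low and MHC class II-high cells. In the male ones it was at 541 (404 to 709) and 480 CPM (451 to 511), so the intervals overlapped in each library. The male MHC class II-low levels rest on 52 S phase UMIs, 78.8% of them in 5 cells, and on 6 G2/M UMIs. Pcna was at 158 and 148 CPM in the female MHC class II-low and MHC class II-high cells.

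The 20 G2/M-high T-like cells were looked at for T cell genes, chosen after the cells had been seen. All 20 had UMIs of Trac and Trbc2, which encode constant parts of the αβ receptor. Cd8b1 had UMIs in 6, Cd8a in 4, Cd4 in 2, Foxp3 in 1 and Trdc in 1 of them. Among the other 1098 T-like cells Cd8b1 had UMIs in 28.5% and Cd4 in 12.5%, at a median depth of 3890.5 UMIs against 13543 in the G2/M-high ones. As levels, Cd8b1 was at 350 CPM in the G2/M-high and 345 CPM in the other T-like cells, Cd4 at 35.0 and 35.3 CPM, and Trdc, of the γδ receptor, at 3.89 (1 UMI) and 87.4 CPM. The T marker list stood at 3954 CPM in the G2/M-high and 3945 CPM in the other T-like cells, while the macrophage list stood at 14031 CPM in the 6 G2/M-high and 20172 CPM in the other macrophage-like cells. The own marker list was also lower in G2/M-high than in other NK-like (7245 and 10895 CPM), B-like (6100 and 9202.5 CPM) and dendritic-like cells (1474 and 2452 CPM). In the 26 S phase-high T-like cells the T list was lower too, at 3056 CPM against 3992 CPM in the T-like cells not S phase-high. The part of a wrongly assigned lineage in these counts was not tested. Of the 5 dendritic-like G2/M-high cells 3 had UMIs of Cd209a, 2 of Flt3 and none of Xcr1.

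Each gene was also read in cells called high by the other genes of its list, so that no gene chose the cells it was read in. In the female library a median of 62.1% of the UMIs of a G2/M gene lay in such cells, which held about 1.94% of that library's UMIs. In the male library the median was 40.9%, in cells with 1.19% of the UMIs. Hmmr, a spindle protein, was the most concentrated in the female library (84.1%, 74.4 to 91.3%), followed by Ube2c (78.7%) and Cenpf (77.7%). Top2a had 52.2% and 39.9% and Mki67 61.8% and 37.0% of their UMIs there in the 2 libraries, and Ccna2 65.1% and 53.1%. Cenpa was the least concentrated, with 27.2% (23.3 to 31.5%) and 13.6% (9.09 to 19.3%). At the level of CPM, Mki67 was at 558 in female cells high by the other genes and at 6.40 in the rest, and Cenpa at 418 and 21.9.

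S phase genes lay mostly outside the high cells. The median share was 11.8% in the female and 22.6% in the male library. Pcna had the lowest share in the female library, 6.66% (5.56 to 7.89%), with 14.3% in the male library, and Rrm2 the highest in both, 30.8% (24.7 to 37.5%) and 50.5% (40.5 to 60.5%). Rrm2, the regulated subunit of ribonucleotide reductase, was thus closer to the G2/M genes in this respect than Rrm1, its partner subunit, which had 23.0% there in the male library. Of the broad genes, read in G2/M-high cells, Stmn1 was the most concentrated (37.9% and 29.5%) and H2afz the least (7.93% and 4.67%). The 67 female and 42 male cells high for either list were 1.76% and 1.68% of the kept cells. They held 70.2% and 60.3% of all G2/M UMIs, 21.2% and 24.2% of all S phase UMIs and 22.8% and 18.5% of all broad UMIs. The first 2 of these shares are partly fixed by the choice of cells, which were called by the same genes.

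**Figure D4:**
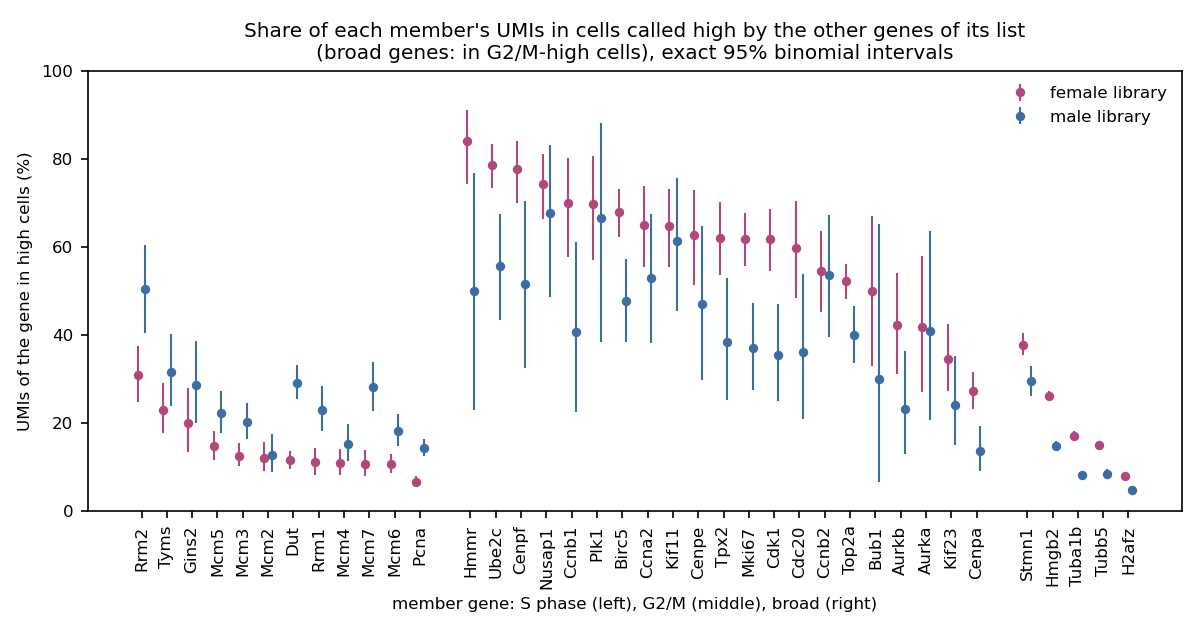
Share (%) of each gene's UMIs that lay in cells called high by the other genes of its list, or in G2/M-high cells for the broad genes, with exact 95% binomial intervals for the female and the male library. Most G2/M genes lie above 30% and S phase genes below, apart from Rrm2 at 30.8% and 50.5% and male Tyms at 31.6%, and Cenpa sits at the foot of the G2/M list with 27.2% and 13.6%.

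Other cell cycle genes, which had no part in calling a cell high, were compared between high and other cells. Of all 11436 genes with at least 50 UMIs, 8.93% were 2-fold or more higher and 21.4% 2-fold or more lower in G2/M-high cells, and 7.71% and 15.2% in S phase-high cells. In G2/M-high cells 35 of 36 further genes of G2 and mitosis were higher. Cks2, a subunit of Cdk complexes, was at 534 CPM against 27.6 CPM, its relative Cks1b at 471 against 17.5 CPM, and the condensin subunits Smc4 and Smc2 at 476 against 76.1 CPM and at 370 against 30.0 CPM. Of 24 further S phase genes 22 were higher there, led in UMIs by Slbp (284 against 94.0 CPM), Tk1 (178 against 7.14 CPM), Gmnn (173 against 28.1 CPM) and Clspn (136 against 4.99 CPM). In S phase-high cells all 24 further S phase genes were higher, with Slbp at 326 against 91.1 CPM, Gmnn at 238 against 25.0 CPM, the ligase Lig1 at 236 against 17.4 CPM and Hells at 210 against 15.5 CPM. So were 34 of 36 further genes of G2 and mitosis, with Smc4 at 254 against 78.3 CPM, Smc2 at 247 against 30.1 CPM, Cks1b at 204 against 20.4 CPM and the kinetochore gene Spc24 at 145 against 6.02 CPM. The high cells differ in lineage from the rest, which these folds do not take out.

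Fewer genes that start or hold back the cycle were past 2-fold. Of 13 genes of entry with at least 50 UMIs, 5 were higher (Cdk2, E2f2, E2f3, E2f8 and Wee1) and 2 lower (Ccnd1 and Ccnd2) in G2/M-high cells, where 8.93% of all genes were higher and 21.4% lower. The factors Foxm1, Mybl2 and E2f7, under 50 UMIs and so not counted, were at 42.2 against 0.649, 30.5 against 1.14 and 23.4 against 0.731 CPM. Ccnd2, a D-type cyclin of early G1, was at 162 CPM against 359 CPM, while Ccnd3 (183 against 180.2 CPM), Cdk4 (113 against 79.5 CPM) and Cdk6 (72.7 against 67.4 CPM) stayed within 2-fold. In S phase-high cells 8 of the 13 were higher and none lower. Cdk4 was at 201 against 76.8 CPM, Ccnd2 at 233 against 359 CPM, Ccnd3 at 221 against 179 CPM and Ccnd1 at 104 against 87.8 CPM. Of 11 genes that hold back division, 3 were lower in both kinds of high cells, beside 21.4% and 15.2% of all genes. They were Btg1, Btg2 and Tob1, the last on 3 and 6 UMIs with intervals of its ratio that spanned 1 (0.0751 to 1.07 and 0.173 to 1.04). Btg1 was at 263 against 575 CPM in G2/M-high and at 206 against 579 CPM in S phase-high cells, and Btg2 at 70.1 against 164 CPM in S phase-high cells. Cdkn2c was higher in both, and so was Rbl1, at 108 against 20.0 CPM in G2/M-high and 89.9 against 19.6 CPM in S phase-high cells. Cdkn2d was higher in G2/M-high cells (169 against 48.1 CPM) and at 67.0 against 49.7 CPM in S phase-high cells. Cdkn2c, at 136 against 14.0 CPM in G2/M-high cells, had the largest fold of the brakes whose values are given here.

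Between the libraries, the G2/M list was higher in the female library as a whole (ratio 1.56, 1.47 to 1.66). Of 20 G2/M genes with at least 50 UMIs, 19 had a ratio above 1, as did 38.5% of all genes tested, and 5 were higher by 2-fold or more, where 0.61% of the 11483 genes tested were higher and 1.98% lower by 2-fold or more. The 5 were Hmmr (3.17, 1.82 to 5.93), Cenpf (2.79), Nusap1 (2.72), Plk1 (2.44) and Ube2c (2.32), and the lowest was Aurkb (0.788, 0.556 to 1.12). The median log2 ratio of the list was 0.57, with -0.07 over all genes tested. Ratios without the high cells describe the rest only, since those cells were called by the same genes and leaving more of them out of 1 library lowers its level. Without them the summed ratio was 1.17 (1.05 to 1.30) and that of Hmmr turned to 0.483 (0.117 to 1.90). Genes of the list share the same few cells and are not independent. The summed S phase ratio was 0.913 (0.879 to 0.948), and 0.947 (0.908 to 0.989) without the high cells. It turned to 1.18 (1.01 to 1.37) under the mitochondrial ceiling of 1.2%. None of the 12 S phase genes was past 2-fold, with a median log2 ratio of -0.07. The highest was Rrm2 (1.21, 0.95 to 1.54) and the lowest Gins2 (0.755, 0.577 to 0.990). Of the broad genes Hmgb2 was at 1.30 (1.25 to 1.35) and Tuba1b at 0.784 (0.749 to 0.820).

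Within T-like cells all 16 G2/M genes tested had a ratio above 1, as did 45.6% of all genes tested there, and 6 were higher by 2-fold or more (Ccnb2, Birc5, Cenpa, Cenpf, Nusap1 and Ube2c), beside 0.525% of 7430 genes higher and 0.431% lower. Cenpf had the highest ratio, with 78 UMIs in the female and 9 in the male library (23.7 and 5.44 CPM, ratio 4.36, 2.18 to 9.88), and Kif11, a spindle motor, the lowest (1.15, 0.675 to 2.02). The summed list was at a ratio of 1.81 (1.63 to 2.01), and at 1.06 (0.827 to 1.37) once the high cells were left out. In the same cells the S phase sum was at 0.832 (0.772 to 0.896), with Mcm4 lowest (0.702, 0.532 to 0.929) and Rrm2 highest (0.975). Stmn1 was the highest and H2afz the lowest of the broad genes (1.47, 1.23 to 1.76, and 1.02, 0.947 to 1.10). The G2/M and S phase lists thus pointed in opposite directions in T-like cells, but without the high cells the S phase ratio was 0.944 (0.858 to 1.04) and neither list was clear of 1. Under the mitochondrial ceiling of 1.2% the S phase ratio turned to 4.70 (3.04 to 7.55).

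In NK-like cells 5 G2/M genes were tested and 2 were higher by 2-fold or more, beside 0.586% of 8185 genes higher and 0.464% lower. Top2a had 182 UMIs in the female and 20 in the male library (43.8 and 10.7 CPM, ratio 4.11, 2.59 to 6.89), and Birc5 60 and 13 UMIs (ratio 2.08, 1.13 to 4.14). Cenpa had the lowest ratio (1.25, 0.854 to 1.86). Of the S phase genes Rrm2 was past 2-fold (54 and 11 UMIs, ratio 2.22, 1.15 to 4.70), with 74.1% and 100% of those UMIs in 5 cells each, and Pcna was lowest (0.794, 0.682 to 0.925). Stmn1 was at 1.71 (1.40 to 2.09) and Tubb5 at 1.02 (0.93 to 1.12). The summed G2/M ratio of 2.14 (1.81 to 2.55) came to 1.04 (0.825 to 1.33) without the high cells. The summed S phase ratio was 0.987 (0.916 to 1.06), and 0.879 (0.810 to 0.953), then clear of 1, without the high cells.

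In macrophage-like cells none of the 5 G2/M and 12 S phase genes tested was past 2-fold, beside 1.14% of 8541 genes higher and 0.902% lower in the female library. Mki67 had the highest G2/M ratio (40 and 26 UMIs, 1.38, 0.821 to 2.35) and Birc5 the lowest (21 and 37 UMIs, 0.508, 0.283 to 0.892). Among S phase genes the ratios ran from 0.763 (Rrm2, 0.418 to 1.38) to 1.12 (Mcm4, 0.805 to 1.56). Tuba1b was lower in the female library (0.693, 0.643 to 0.746), while the interval of Hmgb2 spanned 1 (0.892 to 1.12). The summed G2/M ratio was 0.896 (0.776 to 1.03) with all cells, 0.861 (0.747 to 0.992) when a lineage needed 3 markers, and 1.32 (1.07 to 1.63) without the 7 female and 16 male high cells. The summed S phase ratio was 0.888 (0.824 to 0.957), and 1.01 (0.932 to 1.09) without the high cells. Under the mitochondrial ceiling of 1.2% it was 0.817 (0.610 to 1.08), no longer clear of 1.

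In dendritic-like cells the summed G2/M list was lower in the female library, at a ratio of 0.402 (0.306 to 0.526), on 83 female and 172 male UMIs. With lineages taken from clusters, each named by the marker gate's call for most of its cells, the ratio was 0.838 (0.670 to 1.05), no longer clear of 1. With a mitochondrial ceiling of 1.2% it was 1.14 (0.475 to 2.66). The ratio of the summed S phase list was 0.614 (0.508 to 0.740), and 1.29 (0.891 to 1.86) under that ceiling. No G2/M gene reached 50 UMIs there. Stmn1 was lower by 2-fold or more (48 and 83 UMIs, ratio 0.482, 0.331 to 0.696), beside 1.05% of 2582 genes higher and 1.2% lower. That call did not hold with lineages from clusters (1.01, 0.738 to 1.39) or without the high cells (1.07, 0.546 to 2.13). Of the 3 S phase genes tested Dut was lowest (0.565, 0.308 to 1.01) and Mcm3 highest (1.33, 0.740 to 2.46), and H2afz had the highest broad ratio (0.786, 0.709 to 0.872). Without the high cells the G2/M ratio was 0.789 (0.476 to 1.31). In monocyte-like cells the G2/M sum rested on 22 and 27 UMIs (ratio 0.480, 0.261 to 0.875). The S phase sum was at 0.914 (0.720 to 1.16) and, with lineages from clusters, at 0.632 (0.518 to 0.771). Pcna, the only S phase gene tested there, was at 0.884 (0.650 to 1.21), Hmgb2 at 1.02 and Tuba1b at 0.770. B-like cells had Cenpa at 0.836 (0.525 to 1.36), Dut at 1.23 (0.793 to 1.95), Pcna at 1.05, Hmgb2 at 1.19 and Stmn1 at 0.780, and no member past 2-fold. Their S phase sum was at 1.04 (0.861 to 1.26) and, with lineages from clusters, at 1.23 (1.03 to 1.47).

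**Figure D5:**
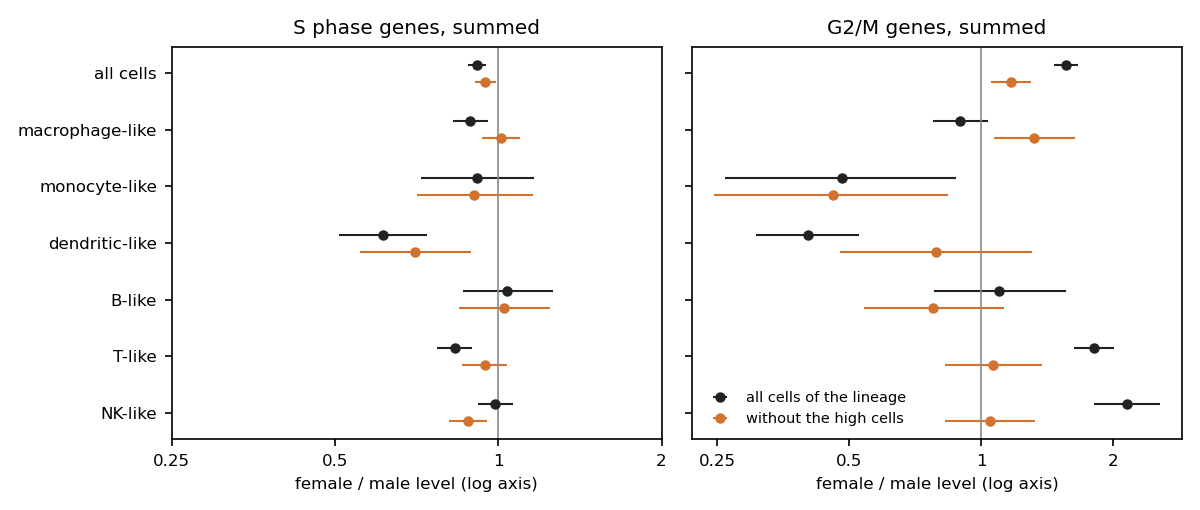
Ratio of the female to the male level (log axis) of the summed S phase genes (left) and G2/M genes (right) over all cells and in 6 lineages, with all cells of the lineage (black) and without the high cells (orange), and 95% counting intervals. The G2/M ratios of T-like and NK-like cells fall from 1.81 and 2.14 to 1.06 and 1.04 without the high cells, and that of macrophage-like cells goes from 0.896 to 1.32.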

How the data were processed

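Live CD45+ adrenal gland cells of female and male mice were measured in 1 droplet library (3′ chemistry) per sex. The authors aligned and counted the reads with Cell Ranger 4.0.0 against mm10, per the labels and the submitters' processing notes, and filtered barcodes on the knee of the rank curve; the annotation release was not given in the sources used here. The deposited values are raw UMI counts per gene and barcode. The barcodes held 16218309 female and 9512670 male UMIs, with at least 500 each, and 2 barcode sequences occurred in both libraries. Xist UMIs occurred in 76.3% of female and 0.0799% of male cells, and UMIs of Y-linked genes in 0.157% and 39.2%.

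Everything else was computed from the counts with Python 3.11.15 and scanpy 1.11.5. Cells with at least 200 genes and at most 15% mitochondrial UMIs were kept (96.3% and 93.2%). The study's methods give a ceiling of 1.2%. Computed from these counts it would have kept 327 and 359 cells, far fewer than the study analysed, so it may be on another scale. It was run as an alternative, with values that rest on those few cells. No barcode was removed as a doublet, since scores can take cycling cells; the automatic Scrublet threshold marked 1 and 8 barcodes, and removal at 0.8% per 1000 barcodes was an alternative. A lineage needed 2 markers and the highest score, with markers weighted by rarity; a runner-up with 3 markers and 0.75 of that score made a cell mixed. This scoring was set after lineage markers and clusters had been seen. It gave the same lineage as 21 clusters, made without cell cycle genes, for 95.1% of the named cells and 89.7% of all 6319 cells. Each cluster took the lineage that the gate gave to most of its cells. The agreement is therefore partly built in, and lineages taken from clusters are not independent of the markers. Leading genes were read for the named lineages other than adrenal cortex-like and erythroid-like cells. They included no member. They also included markers of the lineage's own list, which is no check, since the gate chose the cells by those markers.

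All levels are CPM with exact Poisson intervals, shares carry Clopper-Pearson, differences Newcombe and ratios exact conditional intervals. A floor of 3 counts was the limit for a count of 0. A gene was tested for a 2-fold ratio with at least 50 UMIs in the cells compared. Scripts were checked on simulated counts. The members and gene lists were chosen with earlier results of these data known. Values are given for Mki67, Top2a, Ccna2, the 6 genes of each list with the most UMIs, the members with the extreme ratios per lineage, and the 4 genes of each other list with the most UMIs in high cells. Others were named where a count or a contrast needed them, after their values were seen.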

Additional observations from a re-analysis of the deposited data

Results flagged for a closer look

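The female to male ratio of the summed G2/M level pointed in opposite directions in different lineages. It was 1.81 (1.63 to 2.01) in T-like cells and 2.14 (1.81 to 2.55) in NK-like cells, but 0.480 (0.261 to 0.875) in monocyte-like cells and 0.402 (0.306 to 0.526) in dendritic-like cells. With lineages taken from clusters the dendritic-like ratio was 0.838 (0.670 to 1.05), no longer clear of 1. Each lineage had 1 library per sex, so the difference between lineages was not tested. The UMIs behind the ratios of T-like, NK-like and dendritic-like cells lay in few cells. There 5 cells held 49.1% of the female and 76.7% of the male G2/M UMIs of T-like cells, 63.6% and 50.9% of those of NK-like cells, and 74.7% and 70.9% of those of dendritic-like cells. In monocyte-like cells the UMIs were few but more spread out, with 22 in 20 female and 27 in 21 male cells. The part of single cells was not tested. Without the high cells the ratios were 1.06 (0.827 to 1.37) in T-like, 1.04 (0.825 to 1.33) in NK-like, 0.458 (0.246 to 0.841) in monocyte-like and 0.789 (0.476 to 1.31) in dendritic-like cells. The high cells were called by the same genes, so these ratios describe the rest only. No monocyte-like cell was G2/M-high, and the cells left out there were S phase-high.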

How the results depend on the processing

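In all, 152 results were computed under up to 13 alternatives. Of the 1294 values 1057 kept their call or stayed within the reported interval, 44 of them with a difference or ratio that changed sides of 0 or 1 while neither value was clear of it, 183 moved, 21 were weaker, 14 stronger and 19 reversed. The cause of these changes was not tested where none is named. No paired analysis was possible because each sex had 1 library. Both the number of UMIs drawn and the minimum number of genes moved the S phase-high shares several-fold.

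With 2 genes as the minimum, S phase-high shares (female, then male) were 4.72% and 5.88% of all cells, 5.80% and 6.91% of macrophage-like and 6.07% and 5.60% of T-like cells, the difference over all cells was -1.17 points, T-like, macrophage-like and NK-like cells were 21.7%, 31.6% and 25.7% of the S phase-high cells, and G2/M-high shares were 1.44% and 0.929%. With 5 genes, S phase-high shares were 0.110% and 0.310%, 0.129% and 0, and 0 and 0.509% in that order, NK-like, T-like and macrophage-like cells were 54.5%, 18.2% and 9.09% of the S phase-high cells, and G2/M-high shares were 0.552% and 0.221%.

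With 500 UMIs drawn, S phase-high shares were 0.314% and 0.320% of all, 0.454% of male macrophage-like, and 0.273% and 0.249% of T-like cells, which were 15% of the S phase-high cells beside 35% macrophage-like cells. G2/M-high shares were 0.472% and 0.240% of all, 0.956% of female T-like and 0.114% of male macrophage-like cells. Without a draw, S phase-high shares were 12.6% and 12.2% of all, 12.8% and 11.5% of macrophage-like and 16.4% and 15.4% of T-like cells, NK-like cells were 29.6% and T-like cells 23.2% of the S phase-high and T-like cells 31.0% of the G2/M-high cells, and the difference for NK-like cells turned to -7.76 points. G2/M-high shares were then 1.96% and 1.52% of all, 1.65% and 1.48% of macrophage-like, and 2.24% of male T-like cells. With another seed the G2/M-high difference was 0.551 points, clear of 0, and the male macrophage-like share 0.136%.

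The mitochondrial ceiling of 1.2% left 6 S phase-high and 4 G2/M-high cells. S phase-high shares were 1.74% and 0.329% of all, 3.57% of female macrophage-like, and 7.41% and 0 of T-like cells, with macrophage-like cells 50% and NK-like cells 0 of them. G2/M-high shares were 1.39% and 0 of all, 0 and 0 of macrophage-like, and 11.1% and 0 of T-like cells, with T-like cells 75%, and NK-like and macrophage-like cells 0 of them. Summed S phase levels were 345 and 423 CPM in macrophage-like and 1479 and 315 CPM in T-like cells, and G2/M levels 74.0 and 95.5 CPM and 1100 and 62.9 CPM. Female to male S phase ratios were 1.18 (all), 4.70 (T-like), 1.29 (dendritic-like) and 0.817 (macrophage-like), G2/M ratios 12.4 (B-like), 0 (NK-like), 1.14 (dendritic-like) and 0.350 (monocyte-like), and single ratios 1.50 (Gins2, all), 2.10 (Pcna) and 0 (Stmn1) in NK-like, and 1.005 (H2afz) and 14.0 (Stmn1) in dendritic-like cells. A ceiling of 5% gave T-like G2/M levels of 573 and 308 CPM and a female S phase level of 604 CPM.

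Lineages taken from clusters gave ratios of 0.838 (G2/M) and 1.01 (Stmn1) in dendritic-like cells, and S phase ratios of 1.23 in B-like and 0.632 in monocyte-like cells, both then clear of 1. A gate of 3 markers gave a macrophage-like G2/M ratio of 0.861, then clear of 1. Without the high cells, G2/M ratios were 1.04 (NK-like), 1.06 (T-like), 0.789 (dendritic-like) and 1.32 (macrophage-like). S phase ratios were 0.879 (NK-like, then clear of 1), 0.944 (T-like) and 1.01 (macrophage-like). Single ratios were 0.507 (Cenpf, T-like), 1.19 (Hmgb2, macrophage-like), 0.483 (Hmmr, all), 1.07 (Stmn1, dendritic-like) and 0.852 (Tubb5, NK-like).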
